A study of Mus musculus with 12 samples.

Results

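Efr3b, Dnajc27 and Adcy3 stand next to each other on proximal mouse chromosome 12, and the 10 genes described here are these 3 with 7 of the genes around them. They are 10 of the 37310 genes in the counts. In chromosome order they are Rab10, Asxl2, Dtnb, Dnmt3a, Efr3b, Dnajc27, Adcy3, Cenpo, Ncoa1 and Itsn2. They were chosen from earlier results on the same libraries, in which Efr3b, Dnajc27 and Adcy3 were lower in FosB knockout (KO) than in wildtype (WT) mice. The difference between KO and WT is therefore given as a description, with its size and error and without a p-value. The comparison of TRAP with input did not choose them and was tested.

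Translating ribosome affinity purification (TRAP) collects the mRNA held by tagged ribosomes of chosen cells. Mice of strain C57BL/6 carried Rosa26 eGFP/L10a, a Cre-dependent ribosomal protein fused to GFP, and the KO mice were also FosBfl/fl, which loses exons 2 and 3 of FosB where Cre acts. The WT mice were littermates without floxed FosB. Retrograde HSV-Cre was injected into the nucleus accumbens (NAc) of both genotypes, and 3 weeks later tagged ribosomes and whole tissue (input) were taken from ventral hippocampus (vHPC). Both groups thus received the virus and carried the ribosome tag. Cre reached the vHPC through neurons that project to NAc, so by design the deletion and the tag fall in the same cells, while the input also holds all other cells of the tissue. The ages of the mice are not given in the sources used here. Each genotype was represented by 3 pools of mice, each of 3 mice by the labels and of 3 to 4 by the methods. TRAP RNA and input RNA of every pool were sequenced, which makes 12 libraries in 4 groups of 3.

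The genes of this stretch do unrelated work. Efr3b anchors the lipid kinase PI4KA at the plasma membrane, where the kinase makes the phosphatidylinositol 4-phosphate from which signaling phosphoinositides are built. Adcy3 is a membrane adenylyl cyclase that makes cyclic AMP, and in hippocampal neurons its protein is a common marker of the primary cilium, the small antenna of the cell body. Dnajc27, also named RBJ, joins a Rab-like GTPase to a J domain, the part by which such proteins engage Hsp70 chaperones. FosB and its splice form ΔFosB are transcription factors that pair with Jun proteins and bind DNA at AP-1 sites, spelled TGAGTCA, and at related cyclic AMP response elements (CRE), spelled TGACGTCA.

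The promoters of the 3 genes are shown because the deleted gene encodes a factor that binds such motifs. Each is 300 bases of RefSeq on GRCm38.p6, from 250 bases before the start site to 50 after it, read 5′ to 3′ on the strand of the gene. Capitals mark TGACGTCA or its shorter form TGACG (the short CRE) on either strand in Efr3b and Dnajc27, and TGANTCA, an AP-1 spelling with any middle base, in Adcy3. Efr3b is at chr12:4038866-4039165 on the minus strand, Dnajc27 at chr12:4082324-4082623 and the first of 2 Adcy3 promoters at chr12:4133147-4133446, both on the plus strand.
Efr3b: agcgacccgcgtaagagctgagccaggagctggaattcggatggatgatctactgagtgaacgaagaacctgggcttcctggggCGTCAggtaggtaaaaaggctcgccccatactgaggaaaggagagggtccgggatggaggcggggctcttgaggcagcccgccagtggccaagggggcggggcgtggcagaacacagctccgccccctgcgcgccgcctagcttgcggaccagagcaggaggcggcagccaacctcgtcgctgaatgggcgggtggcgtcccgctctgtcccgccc
Dnajc27: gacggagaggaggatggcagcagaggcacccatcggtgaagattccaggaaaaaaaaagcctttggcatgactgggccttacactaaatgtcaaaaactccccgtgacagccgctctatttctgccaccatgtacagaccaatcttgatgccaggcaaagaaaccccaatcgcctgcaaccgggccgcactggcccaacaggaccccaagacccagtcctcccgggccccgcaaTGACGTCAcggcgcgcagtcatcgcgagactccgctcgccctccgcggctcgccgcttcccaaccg
Adcy3: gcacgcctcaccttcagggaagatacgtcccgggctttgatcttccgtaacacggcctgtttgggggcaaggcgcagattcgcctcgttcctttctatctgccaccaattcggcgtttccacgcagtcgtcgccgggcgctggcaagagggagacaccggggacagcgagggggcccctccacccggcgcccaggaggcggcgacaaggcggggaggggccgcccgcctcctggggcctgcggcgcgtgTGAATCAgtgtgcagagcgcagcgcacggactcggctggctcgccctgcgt

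The Dnajc27 promoter held a whole CRE that began at -16 from the start site, a spelling found in 1.79% of the 32851 mouse promoters of the same length. That of Efr3b held a short CRE, in reverse, at -166, and 20.8% of all promoters held one on either strand. The AP-1 consensus TGAGTCA, searched on both strands, was in 5.20% of all promoters and in 0 of the 16 promoters found for the 10 genes. The Adcy3 match, across the start site from -1, fits the looser TGANTCA, which 7.81% of promoters held, and Dtnb had one too, at -228. A short CRE was also found in Asxl2, Itsn2 and Rab10, whose levels are given below, and the CRE of Dnajc27 contains the short form on both strands. GC content was 66.3% in Efr3b, 60% in Dnajc27 and 68.7% in the first Adcy3 promoter, against a median of 52.7% over all promoters. The second Adcy3 promoter had 56% GC and 0 matches to any of these motifs, and the promoters of the other 7 genes ran from 56.7% to 84.7% GC. These matches describe letters, and no binding was measured.

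On mm9, the build of the counts, the 10 genes span 1.47 Mb, chr12:3247430-4720756. Efr3b (ENSMUSG00000020658.8, chr12:3962554-4038915) runs on the minus strand, and Dnajc27 (ENSMUSG00000020657.8, chr12:4082612-4110602) and Adcy3 (ENSMUSG00000020654.9, chr12:4133103-4213525) run away from it on the plus strand. Their start sites are 43.7 kb and 94.2 kb from that of Efr3b, and the 3 genes together run over 251 kb. Efr3b and Dnajc27 overlap no other annotated gene. Adcy3 and Cenpo run toward each other and share 1380 bases of exon on opposite strands, 22.1% of the exon length of Adcy3 and 19.0% of that of Cenpo. The library kit was stranded, but the strand setting of the counting is not given in the sources used here, so the values of this pair are uncertain where they overlap.

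Depth ran from 3416030 to 5614089 gene counts a library (median 4296056). Levels are in CPM, the counts of a gene in proportion to those of its library, scaled by TMM normalization. At these depths 3 counts, the most that a count of 0 allows, come to 0.534 to 0.878 CPM. This floor covers counting error. The targeted gene, Fosb, stood at 45.2, 32.0 and 40.1 CPM in the WT TRAP libraries and at 29.3, 18.8 and 21.5 CPM in the KO TRAP ones, without overlap. In input it was at 22.2 to 30.2 CPM in WT and 14.8 to 17.0 CPM in KO. The mean in KO was thus 59.3% of that in WT in TRAP and 62.3% in input, so most of the Fosb signal remained in the libraries labelled KO and the gap was of similar size in both fractions. Counts over the whole gene include exons that the deletion leaves, and the deleted exons were not counted apart. The labelled tissue, hippocampal neurons, was checked by summed marker levels. The 5 neuron markers found summed to 7640 to 8029 CPM in WT TRAP and 6601 to 7256 in KO TRAP, and to 5230 to 5575 in all input libraries. Their part in the differences between KO and WT TRAP below was not tested. The 6 astrocyte markers summed to 239 to 322 CPM in TRAP and 1498 to 1891 in input, and 5 glutamate neuron markers to 4460 to 4940 in TRAP. The 6 GABA neuron markers ran from 224 to 322 CPM in WT TRAP and from 140 to 564 in KO TRAP, and the 4 endothelial markers reached at most 3.63 CPM in TRAP, with Cldn5 at 0 in all WT TRAP libraries. Markers of ependyma and choroid plexus ran from 8.41 to 73.1 CPM in WT input and from 6.88 to 249 in KO input, with overlap. Dentate granule neuron markers were higher in KO input for 3 of 3 genes, with a median log2 difference of 0.68, and summed to 38.6 to 65.2 CPM in WT input and 52.1 to 95.6 in KO input. Between genotypes, edgeR called 0 of the 29 markers tested in TRAP and 0 of the 42 in input, beside 0.0682% and 0.0312% of all genes, and DESeq2 called 0 in both. At an unadjusted p under 0.05 there were 3 markers in TRAP, 10.3% against 6.05% of all genes, and 6 in input, 14.3% against 2.89%, with the dentate markers Prox1 and Dsp and the choroid plexus marker Kl among the 6. The part of these markers in the differences between KO and WT input below was not tested. Fewer cells of a type and less RNA per cell cannot be told apart in such samples.

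Efr3b was about as high in TRAP as in input and lower in every KO library than in every WT library of the same kind. The WT TRAP libraries gave 315, 333 and 374 CPM, and the KO TRAP libraries 194, 208 and 217 CPM. In WT input it was at 304, 361 and 340 CPM, and in KO input at 195, 178 and 225 CPM. The lowest WT library, of input, stood above the highest KO library, also of input, so the 6 WT and 6 KO libraries did not overlap at all. The difference on the log2 scale was -0.72 (SE 0.0983) in TRAP and -0.74 (SE 0.115) in input. That put KO TRAP at 60.6% of WT, with a 95% interval of 52.6% to 69.7%, and KO input at 59.7%, with an interval of 50.6% to 70.6%.

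Dnajc27 was also lower in KO than in WT, and its levels were below those of Efr3b. Unlike Efr3b, it was lower in TRAP than in input, as given below. It was at 127, 151 and 162 CPM in WT TRAP and at 90.9, 113 and 91.8 CPM in KO TRAP. The input libraries stood at 180, 217 and 218 CPM in WT and at 118, 118 and 133 CPM in KO. KO and WT did not overlap within TRAP or within input, although the highest KO input library was above the lowest WT TRAP library. KO TRAP was at 67.3% of WT (95% interval 56.2% to 80.5%; log2 difference -0.57, SE 0.126), and KO input at 60.0% (50.5% to 71.3%; log2 difference -0.74, SE 0.118).

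Adcy3 was the scarcest of the 3 and, in TRAP, varied most between libraries of a group in proportion to its level. Its levels were 43.7, 33.6 and 42.8 CPM in WT TRAP and 12.3, 21.0 and 25.4 CPM in KO TRAP, from 143 to 246 reads and from 44 to 104 reads. In input it was at 34.8, 34.1 and 37.7 CPM in WT and at 23.0, 24.6 and 27.2 CPM in KO. All 6 KO libraries were below all 6 WT libraries. KO TRAP was at 49.0% of WT, with an interval of 35.3% to 68.1%, and KO input at 70.3%, with an interval of 54.4% to 90.8%. The log2 differences were -1.03 (SE 0.228) and -0.51 (SE 0.176). The lowest value came from KO pool 2, and without that pool the TRAP difference was -0.79.

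**Figure D1:**
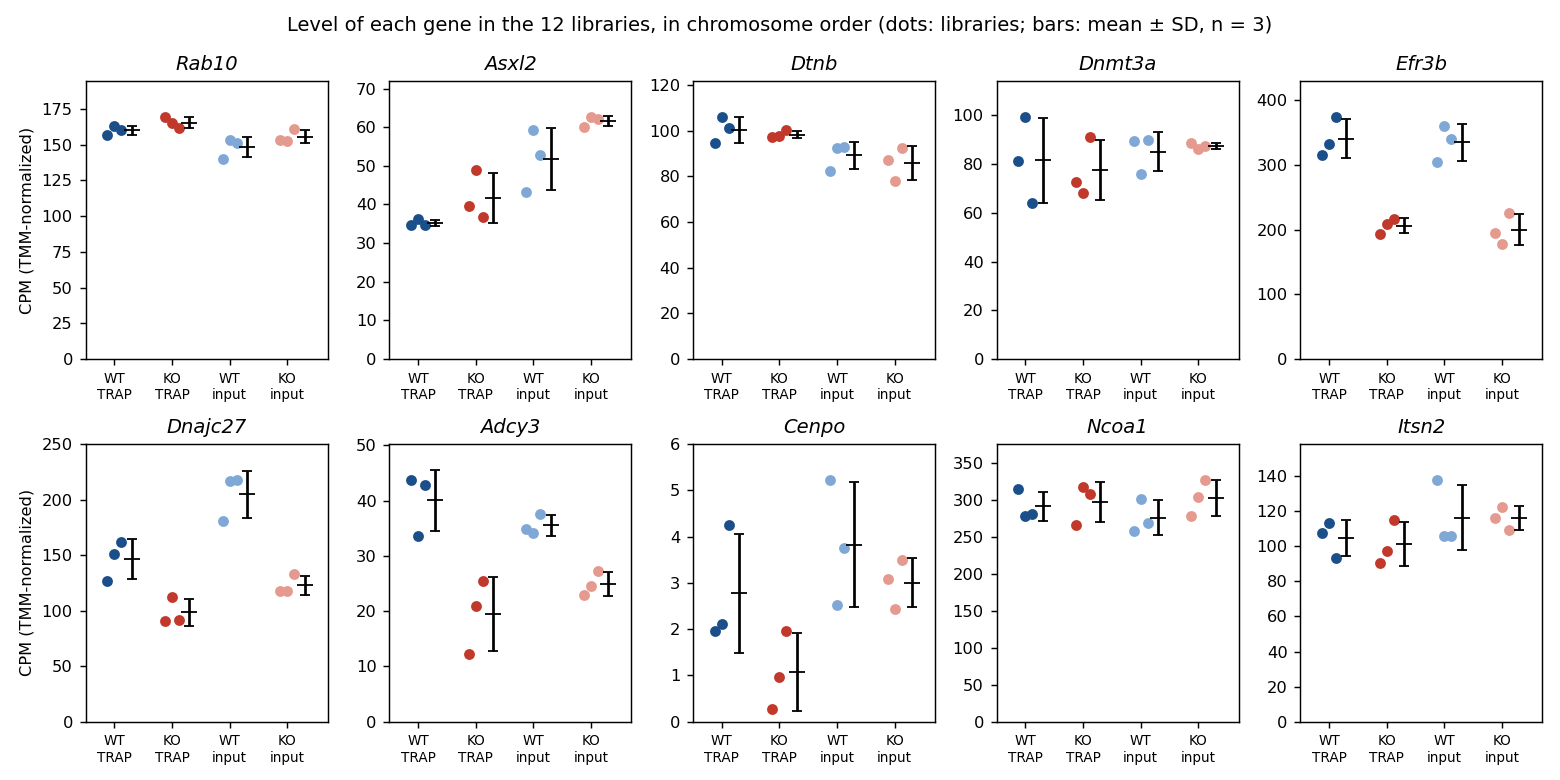
CPM (TMM-normalized, linear axes from 0) of the 10 genes in chromosome order, with 1 dot per library and bars for the mean ± SD of the 3 libraries in each group of genotype and fraction. Efr3b, Dnajc27 and Adcy3 were lower in KO in TRAP and in input, as at 206 against 340 CPM for Efr3b in TRAP, while the dots of Rab10, Dtnb, Dnmt3a, Ncoa1 and Itsn2 overlap between genotypes.

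Beside Adcy3, Cenpo encodes a subunit of the centromere complex on which kinetochores are built, a protein of dividing cells. It was the scarcest of the 10, at 1.96, 2.12 and 4.25 CPM in WT TRAP against 0.279, 0.975 and 1.95 CPM in KO TRAP, which is 9 to 16 reads and 1 to 8 reads. The KO TRAP libraries were just below the WT ones, but these counts were too low to enter the test in TRAP. In input it was at 5.22, 2.52 and 3.74 CPM in WT and at 3.08, 2.44 and 3.48 CPM in KO, with overlap (log2 difference -0.33, SE 0.522). A change of Cenpo of the size seen in Efr3b was not detectable at this depth.

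The other genes of the stretch act on chromatin, the cell cortex or membrane traffic. Dnmt3a, the member before Efr3b, is a DNA methyltransferase that sets new methylation marks. Its levels of 81.3, 99.2 and 64.0 CPM in WT TRAP and 72.8, 68.0 and 91.3 CPM in KO TRAP overlapped (log2 difference -0.08, SE 0.156), as did those in input (0.04, SE 0.131). Ncoa1, a coactivator of nuclear receptors and the next member after Cenpo, was at 314, 278 and 281 CPM in WT TRAP and at 266, 318 and 308 CPM in KO TRAP. Its log2 difference was 0.03 (SE 0.0974) in TRAP and 0.13 (SE 0.108) in input. Dnmt3a and Ncoa1 thus had intervals that include 0 in TRAP, from -0.40 to 0.25 for Dnmt3a and from -0.17 to 0.23 for Ncoa1. Cenpo, which lies between Adcy3 and Ncoa1, had too few reads for such an interval in TRAP.

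Asxl2, a chromatin protein of the Polycomb deubiquitinase complex, was higher in every KO library than in every WT library of the same kind. It was at 34.7, 36.2 and 34.8 CPM in WT TRAP against 39.6, 49.0 and 36.6 CPM in KO TRAP, and at 43.2, 59.3 and 52.9 CPM in WT input and 60.1, 62.6 and 62.1 CPM in KO input. The gaps were narrow, and the log2 difference was 0.25 in TRAP (95% interval -0.11 to 0.60) and 0.25 in input (-0.08 to 0.57). Rab10, a small GTPase of secretory vesicles, was within 157 to 169 CPM in all 6 TRAP libraries. Dtnb, which encodes a dystrobrevin of the dystrophin complex, was within 94.4 to 106 CPM there, and Itsn2, an intersectin scaffold of endocytosis, within 90.7 to 115 CPM. Over the 6 other members tested in both, the log2 difference between KO and WT lay between -0.08 and 0.25 in TRAP and between -0.05 and 0.25 in input.

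Because the members were chosen on this contrast, the counts below are printed beside those of all genes and nothing is read from them. By edgeR's quasi-likelihood test at an adjusted p under 0.05, 1 of the 9 members tested in TRAP was called lower in KO, Efr3b, against 0.0341% of the 11727 genes tested. In input 2 of 10 were called lower, Efr3b and Dnajc27, against 0.0234% of 12816 genes. In TRAP 3 of 9 members had every KO library below every WT library, against 6.12% of all genes, and 1 of 9 had every one above, against 5.73%. In input 3 of 10 were below, against 4.17%, and 1 of 10 above, against 4.2%. The KO libraries were below the WT ones both in TRAP and in input for 3 of the 9 members tested in both and for 0.598% of 11544 genes. The median log2 difference of the members was -0.05 in TRAP and -0.03 in input, beside -0.00 over all genes in TRAP. In TRAP, DESeq2 called Efr3b and Adcy3, edgeR without a filter called Efr3b, Dnajc27 and Adcy3, and leaving out WT pool 1 added Dnajc27 and leaving out WT pool 2 added Adcy3 to the call of Efr3b. The calls in input for both genes were lost without WT pool 2, without WT pool 3, without KO pool 2 or without KO pool 3, and that of Dnajc27 also without KO pool 4. The log2 differences without 1 pool stayed between -0.84 and -0.67 for Efr3b and between -0.81 and -0.69 for Dnajc27.

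The other annotated genes from 2 Mb before to 2 Mb after these members give the local background. Of the 33, 12 could be tested in TRAP and 14 in input, and both edgeR and DESeq2 called 0 in either. At an unadjusted p under 0.05 there were 0 in TRAP, against 6.05% of all genes, and 1 in input, against 2.89%. That gene, named after its values were seen, was 2410017P09Rik, which starts beside Cenpo and shares 252 bases of exon with it on the opposite strand. It was at 17.4, 8.70 and 14.1 CPM in WT input and 8.05, 7.32 and 6.32 CPM in KO input, without overlap, from 29 to 64 reads. In TRAP its 15.6, 20.0 and 26.0 CPM in WT and 18.7, 12.4 and 11.5 CPM in KO overlapped (log2 difference -0.53, SE 0.281). Atad2b, distal to the members and also named after its values were seen, had every KO input library below every WT one (log2 difference -0.19, SE 0.162) and overlapped in TRAP (0.32, SE 0.249). None of these 33 genes had KO and WT libraries without overlap in the same direction in both TRAP and input. Pomc, the prohormone gene beside the far end of Efr3b, had 3 to 18 reads per library and gave a log2 difference of -0.55 (SE 0.636) in input. Beyond the members, the 9 genes tested outside the span lay between -0.54 and 0.32 in TRAP and between -0.26 and 0.18 in input. All of them are distal to it. On the proximal side the window held just the pseudogenes Gm9071 and Gm9075, at 0 CPM, so the background outside the span is of 1 side.

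**Figure D2:**
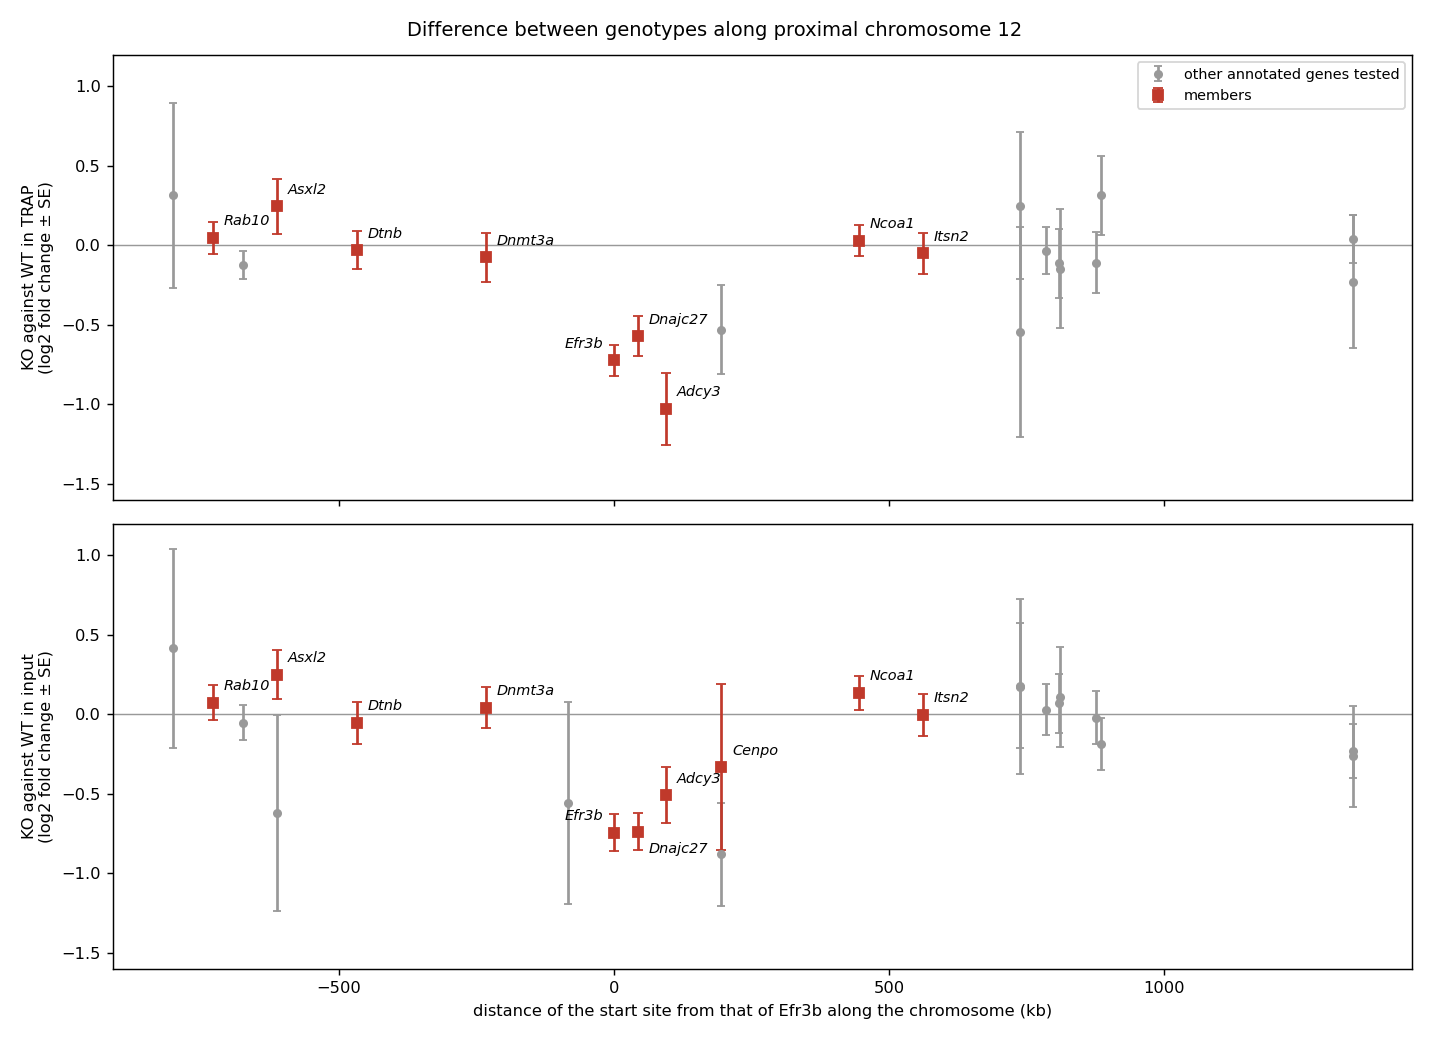
Log2 fold change of KO against WT (± SE) in TRAP, above, and in input, below, against the distance of each start site from that of Efr3b in kb, for the 10 genes (red squares, Cenpo in input alone) and the other annotated genes tested within 2 Mb (grey dots). Efr3b, Dnajc27 and Adcy3 lie between -1.03 and -0.51. Dnmt3a and Ncoa1, the nearest members tested in both, lie between -0.08 and 0.13. Of the genes between these and the 3, Pomc lies at -0.55 (SE 0.636) and Cenpo at -0.33 (SE 0.522), both in input alone. 2410017P09Rik lies at -0.53 (SE 0.28) in TRAP and -0.88 (SE 0.32) in input.

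The difference between genotypes was then set side by side in TRAP and in input, in 1 fit of the 12 libraries. The TRAP difference minus the input difference was 0.02 for Efr3b, with a 95% interval of -0.29 to 0.33 on the log2 scale. For Dnajc27 it was 0.17 (-0.19 to 0.53). Adcy3 had the lower estimate in TRAP, at -0.52 (-1.13 to 0.10), and Cenpo, with its few reads, had an interval of -2.87 to 0.94. For the other 6 genes the estimate was between -0.12 and 0.03. The tagged neurons are a part of the input tissue, and how much of the input signal came from them was not measured.

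As a share of all reads on the 10 genes, Efr3b took 24.7% to 28.4% in WT TRAP and 18.3% to 18.9% in KO TRAP, and 23.8% to 25.7% in WT input and 15.8% to 18.4% in KO input. Ncoa1 took 22.4% ± 1.94 (SD, n = 3) in WT TRAP and 26.9% ± 1.07 in KO TRAP. Of the 10 genes, Efr3b was therefore the most read in WT TRAP on average and Ncoa1 in KO TRAP. Kif3c, a kinesin gene between Rab10 and Asxl2 that is not among the 10, was higher than both, at 455 CPM in WT TRAP and 418 CPM in KO TRAP. The other 7 genes summed to 739 to 798 CPM in WT TRAP and 736 to 815 CPM in KO TRAP, which overlap.

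Per kb of exon, which allows levels to be compared between genes, Efr3b was also the highest of the 10 in WT TRAP, at 52.0 ± 4.58 CPM per kb (SD, n = 3). Rab10 followed at 45.6 ± 0.899, Ncoa1 at 39.7 ± 2.73 and Dnajc27 at 31.4 ± 3.78 CPM per kb. Each of these stood clear of the next, with no overlap of libraries. Lower down came Itsn2 at 16.7 ± 1.61, Dtnb at 10.5 ± 0.595, Adcy3 at 6.41 ± 0.894 and Dnmt3a at 4.90 ± 1.06 CPM per kb. Among these, Adcy3 and Dnmt3a overlapped and are not ordered. Asxl2 at 2.42 ± 0.0586 and Cenpo at 0.382 ± 0.176 CPM per kb were the lowest. In KO TRAP Efr3b stood at 31.5 ± 1.76 CPM per kb, below Rab10 at 47.1 ± 1.08 and Ncoa1 at 40.6 ± 3.73. Adcy3 stood below Dnmt3a in the mean, at 3.13 ± 1.07, and its libraries there overlapped those of Asxl2. The exon length counts the exons of all annotated transcripts, 16642 bases for Dnmt3a and 14571 for Asxl2, so genes with many isoforms are understated on this scale.

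**Figure D3:**
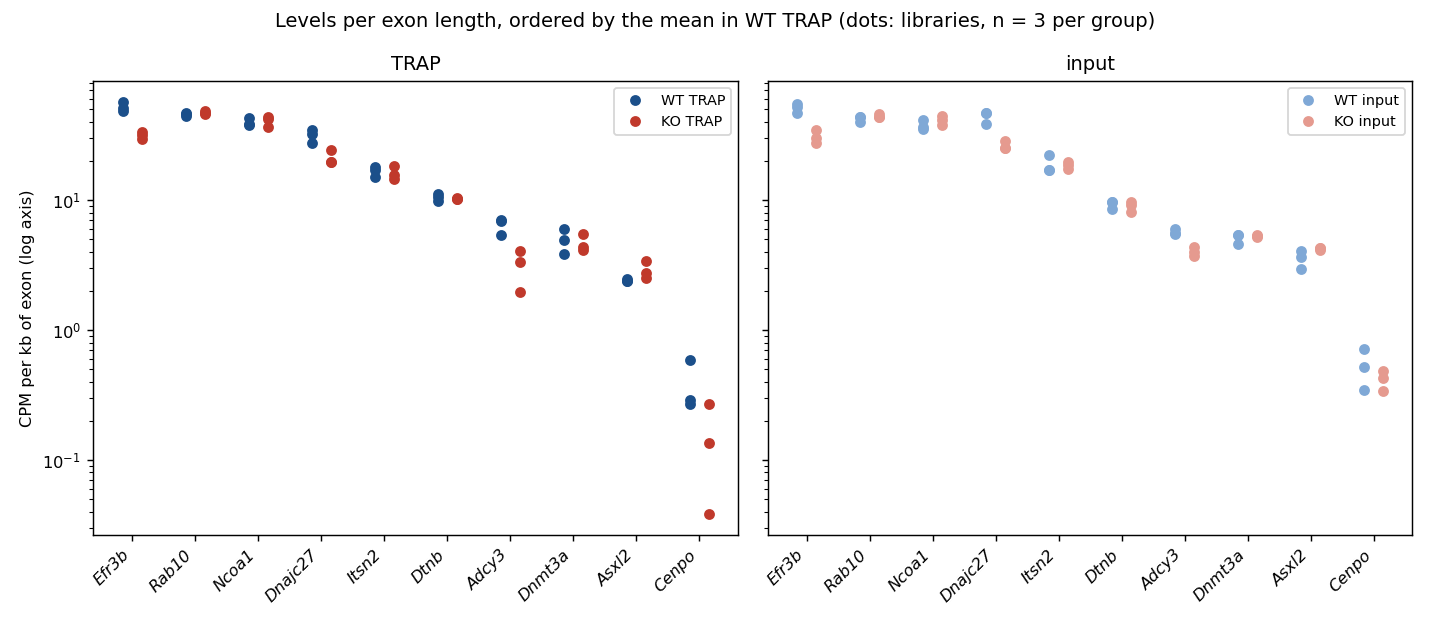
CPM per kb of exon on a log axis for the 10 genes, ordered by their mean in WT TRAP, with 1 dot per library for WT and KO in TRAP (left) and in input (right). Efr3b leads in WT TRAP at 52.0 CPM per kb and stands below Rab10 and Ncoa1 in KO TRAP at 31.5 CPM per kb, and Cenpo is lowest in all 4 groups.

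TRAP against input compares the level of each mRNA on tagged ribosomes with that in the whole tissue, which holds other cells too. Less holding by ribosomes and more mRNA in other cells cannot be told apart in it. This contrast did not choose the members. Dnajc27 and Asxl2 were lower in TRAP, and none of the 10 was called higher. The ratio of TRAP to input in the same pool, on the log2 scale, was -0.50, -0.52 and -0.43 for Dnajc27 in the WT pools and -0.37, -0.06 and -0.53 in the KO pools, so it was lower in 6 of 6 pools. The fitted difference was -0.41 (SE 0.0856), with an adjusted p of 0.000294 by edgeR's quasi-likelihood test over all genes. For Asxl2 it was -0.56 (SE 0.110, adjusted p of 0.000132 by edgeR), and the pools lay between -0.75 and -0.31, again lower in 6 of 6.

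**Figure D4:**
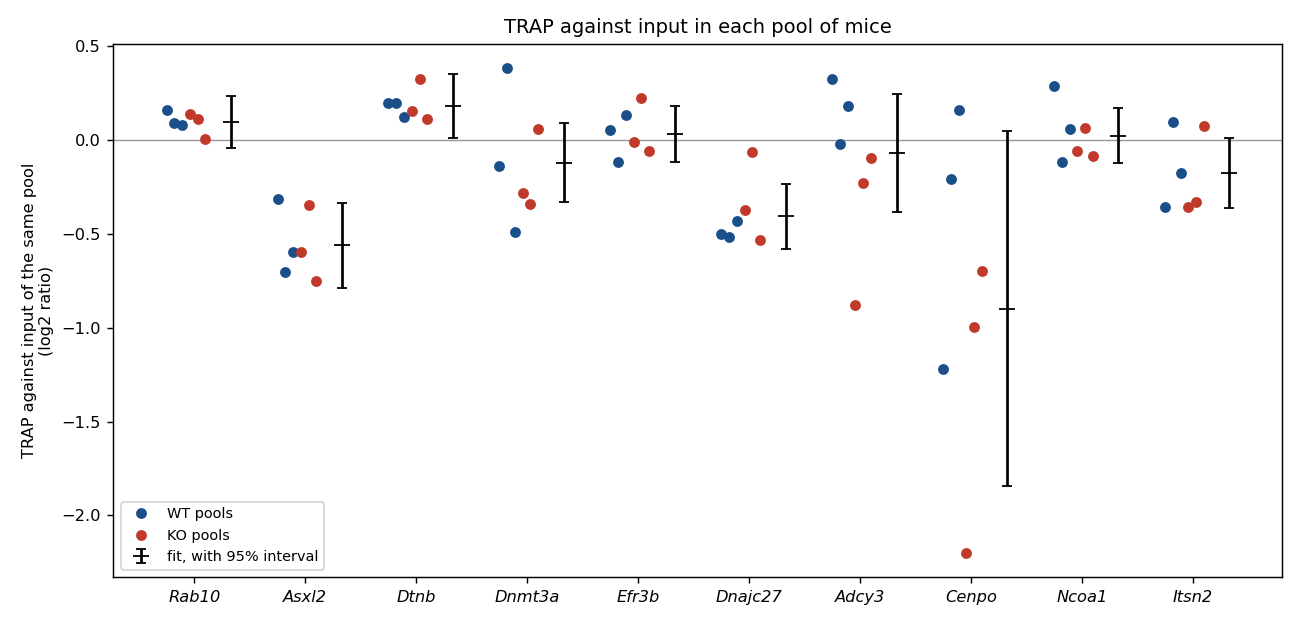
Log2 ratio of TRAP to input of the same pool for the 10 genes in chromosome order, with blue dots for the 3 WT pools, red dots for the 3 KO pools and a black bar for the fitted difference with its 95% interval. All 6 dots lie below 0 for Asxl2 and Dnajc27 and above 0 for Dtnb and Rab10, and those of Efr3b lie on both sides of 0.

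Efr3b did not differ detectably between TRAP and input, with a log2 difference of 0.03 and a 95% interval of -0.12 to 0.18 (adjusted p of 0.758 by edgeR), higher in TRAP in 3 of 6 pools. Dtnb was higher in TRAP in 6 of 6 pools, by 0.18 (SE 0.0832), but did not pass the test, with an adjusted p of 0.0824 by edgeR. Rab10 was also higher in 6 of 6 pools, by 0.10 (interval -0.04 to 0.24, adjusted p of 0.277 by edgeR). Adcy3 differed by -0.07 (interval -0.38 to 0.24, adjusted p of 0.747 by edgeR), and its pools ran from -0.88 in KO to 0.33 in WT. Cenpo gave -0.90 (SE 0.462, adjusted p of 0.120 by edgeR) on few reads, and the estimates of Dnmt3a, Ncoa1 and Itsn2 lay between -0.17 and 0.02 without passing the test. Of the 10 genes, 2 were called lower in TRAP, against 22.7% of the 13214 genes tested, and 0 higher, against 20.1%. The share called lower was close to that of all genes. The replicates are pools of mice. The fit had no term for the pool, so TRAP and input of the same pool entered as separate libraries. The p-values thus rest on the spread between libraries, together with that of other genes.

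The libraries were also compared for how the 10 genes moved together. After the mean of TRAP or of input was subtracted, log2(CPM + 0.5) of Efr3b and Dnajc27 correlated at r = 0.96 over the 12 libraries, that of Efr3b and Adcy3 at 0.83 and that of Dnajc27 and Adcy3 at 0.75. These values contain the difference between genotypes for which the genes were chosen, and the points share pools and depth. With the mean of each of the 4 groups subtracted, the same pairs gave 0.70, 0.40 and 0.17. Adcy3 and Cenpo, which share exon bases, gave 0.85 across genotypes and 0.75 within groups. Efr3b and Dtnb, whose log2 differences between genotypes in TRAP were -0.72 and -0.03, gave 0.81 within groups.

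Among all other genes, the patterns most like that of Efr3b by the same measure were those of Calm3 (r = 0.97), Fbxo46 (0.95) and 9330104G04Rik (0.94), all on chromosome 7. Calm3, a calmodulin gene, was also most like Dnajc27 (0.96), followed by Ube2m on chromosome 7 (0.93) and Fbxo44 on chromosome 4 (0.93). The log2 difference between KO and WT was -0.47 in TRAP and -0.42 in input for Calm3, and -0.87 and -0.84 for Fbxo46. Akap6 and Klc1, both on chromosome 12, and Phospho1 on chromosome 11 were most like Adcy3, at 0.92, 0.92 and 0.91. These are the highest of all genes tested over the 12 libraries. The values contain the difference between genotypes for which Efr3b, Dnajc27 and Adcy3 were chosen, and the points share pools. Fosb, the targeted gene, is itself on chromosome 7, and the part of its place in these likenesses was not tested.

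Partners of the 10 genes were followed in 11 lists of 100 genes, of which 99 were in the annotation. Between KO and WT, edgeR called 0 of the 83 tested in TRAP and 0 of the 86 tested in input, where the shares over all genes were 0.0682% and 0.0312%, and DESeq2 called 0 in both. At an unadjusted p under 0.05 there were 4 in TRAP, 4.82% against 6.05% of all genes, and 1 in input, 1.16% against 2.89%. In the complex that Efr3b anchors, Efr3a, its paralog, gave a log2 difference of -0.13 (SE 0.102) in TRAP and 0.01 (SE 0.129) in input. Pi4ka, the kinase itself, gave 0.05 (SE 0.0951) and 0.00 (SE 0.103), and Ttc7b, its scaffold, 0.11 (SE 0.101) and -0.01 (SE 0.117). The list's median was 0.09 in TRAP and 0.05 in input, beside -0.00 over all genes in TRAP.

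The 6 other adenylyl cyclases that could be tested lay between 0.04 and 0.38 in TRAP, with a median of 0.17, and between -0.15 and 0.12 in input. Adcy1 was at 0.21 (SE 0.291) in TRAP, Adcy5 at 0.04 (SE 0.128) and Adcy9 at 0.27 (SE 0.153). For proteins of the primary cilium and its G proteins, the median was -0.01 in TRAP and -0.06 in input, with Kif3a, a motor of ciliary transport, at -0.06 (SE 0.0880) in TRAP. Gnas, the G protein that activates adenylyl cyclases, was at 0.07 (SE 0.0909). Of the J-domain and Rab-like relatives of Dnajc27, the most read were Dnajc5 at -0.02 and Dnajc6 at 0.04 in TRAP.

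For the lists of the flanking genes, the median log2 difference in TRAP was 0.05 for DNA methylation factors, -0.02 for the dystrophin complex, -0.02 for nuclear receptor coactivators, -0.06 for endocytic partners of intersectins, -0.01 for the Asxl and BAP1 list and 0.02 for Rab10 relatives and exocytic partners. The centromere list, whose genes are scarce here, had 5 members tested and a median of -0.26, from -0.58 to 0.28.

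TRAP against input, over all lists, called 19 partners higher and 28 lower of 88 tested, which is 21.6% and 31.8% against 20.1% and 22.7% of all genes. The share higher was close to that of all genes, and the difference in the share lower was not tested. Ttc7b was higher in TRAP by 0.30 (SE 0.0757, adjusted p of 0.00205 by edgeR) and Fam126a, a further part of the PI4KA complex, was lower, at -0.68 (SE 0.161, adjusted p of 0.00102 by edgeR). Kif3a was higher by 0.44, with an adjusted p of 3.02e-06 by edgeR, and Gnas by 0.60, with 0.000719. Adcy1 was lower, at -0.51, with an adjusted p of 0.0220 by edgeR. Among the paralogs of members, Itsn1 was lower in TRAP at -0.64 (adjusted p of 1.24e-08 by edgeR), Asxl3 at -0.87 (0.000529), Dtna at -0.43 (0.000201) and Ncoa2 at -0.24 (0.0335). Others did not pass the test by edgeR, with Ncoa3 at -0.15 (adjusted p of 0.307), Asxl1 at 0.20 (0.112) and Efr3a at -0.06 (0.593). Dnmt1, the methyltransferase that maintains methylation, was higher in TRAP at 0.29 (adjusted p of 0.0114 by edgeR).

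Reads that fit several places were set aside before counting, which lowers genes with near copies. Of the 75-base stretches along the exons, 0.962% of those of Efr3b, 4.73% of those of Dnajc27 and 0% of those of Adcy3 had another place in mm9 at up to 2 mismatches. The share was highest in Rab10, at 14.3%.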

How the data were processed

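The deposited counts, reads per gene for each of the 12 libraries, were made by the authors, who mapped to mm9 with TopHat and counted with HTSeq-count against Gencode vM1. They were neither normalized nor filtered. Tool versions are not given in the sources used here, and DESeq2 is named for their differential expression. Unique alignments outside any gene (20.6% to 27.1% a library) and those ambiguous between genes (2.11% to 2.56%) were left out. A further 3438372 to 6518589 alignments per library were not unique. Libraries without the word input in their label were read as TRAP. Between libraries of a group, 1.25% to 2.59% of genes had identical counts, so none was a copy.

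Members were matched by Gencode identifier. The members and gene lists were chosen with earlier results of these data known. Genes were tested with edgeR 4.0.16 (filterByExpr, TMM, robust quasi-likelihood fit, Benjamini-Hochberg adjustment over all genes tested) in R 4.3.3. The genotypes were compared within TRAP and within input, without covariate, and TRAP with input over 12 libraries with genotype. The SE is the log2 difference over the square root of F, or comes from the weights of the fit where F was under 0.01. Correlations used log2(CPM + 0.5). Named were all members, neighbours without overlap in TRAP and in input, the 3 genes most like each of Efr3b, Dnajc27 and Adcy3, and up to 4 well-read genes per partner list. 2410017P09Rik, Pomc, Kif3c, Atad2b, Fam126a, Ncoa3, Asxl1 and Asxl3 fall outside this rule and were picked with their values known. Adcy9, Dtna and Ncoa2 fall within it and were also picked with their values known. The steps were tested on simulated data. Exon stretches were aligned with minimap2 2.31. TRAP and input of a pool come from the same mice, and their deviations correlated at 0.0582 to 0.106.

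Alternatives were RLE factors, total counts, no filter, a mean of at least 10 counts, no mitochondrial genes, no robust estimation, DESeq2 1.42.0, other libraries in the fit, a replicate block, and leaving out each pool.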

Additional observations from a re-analysis of the deposited data

How the results depend on the processing

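Between KO and WT, edgeR called 8 genes in TRAP and 4 in input. In TRAP there were 41 without a filter, 18 with DESeq2 and 5 to 20 with 1 pool left out. In input there were 19 without a filter, 8 with DESeq2, 7 in the fit of all 12 libraries and 1 to 5 with 1 pool left out. With the pool number as a replicate block there were 6 in TRAP and 20 in input. WT and KO pools share just a number, and the deviations of same-numbered pools correlated at -0.07 to 0.00. For TRAP against input, 2650 genes were called higher and 3006 lower, 1472 and 1624 in WT alone, 1648 and 1978 in KO alone, and 2343 to 2752 and 2614 to 2992 with 1 pool left out. The block for the shared pool gave 2776 and 3095, and changed no call of a member. The cause of these shifts was not tested.

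Over 15 alternatives each, the log2 difference between KO and WT kept its sign for Efr3b (-0.81 to -0.65 in TRAP, -0.90 to -0.67 in input), Dnajc27 (-0.67 to -0.49 and -0.88 to -0.69) and Adcy3 (-1.26 to -0.79 and -0.59 to -0.45). The members were chosen on this contrast, so the kept sign is no evidence of its own. TRAP against input changed sign for Adcy3 in WT alone (0.180) and without KO pool 2 (from -0.146 to 0.0576 with 1 pool left out), and for Ncoa1 in KO alone (-0.0368) and without WT pool 1 (from -0.0176 to 0.0731). Dtnb passed the test with total counts (adjusted p = 0.0476 by edgeR), and over its 16 alternatives stayed between 0.17 and 0.22. Asxl2 and Dnajc27 passed it under all 16. With 3 pools a group, small differences of Cenpo and Adcy3 could not be shown at this depth and with this spread between libraries.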
